A study of Mus musculus with 15 samples.

Results

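Mitotic genes are the genes whose transcripts build and run the machinery that divides a cell. The 38 genes described here were chosen by name, for their known part in mitosis, among the 21702 protein-coding genes counted in whole liver, and all 38 were found by their gene symbols. RNA-seq was performed on livers of wild-type female mice, C57BL/6 in the labels and C57BL/6N in the study's methods, adult and virgin before the study, in 5 groups of 3 mice. Every mouse had received an adeno-associated virus of serotype 8 (AAV8) through the tail vein. In the AAV8-null groups the virus carried no coding insert, and livers were taken from non-pregnant mice (NP) and at 8 and 16 days post-coitum (dpc). In the AAV8-p21 groups the virus carried the mouse p21 cDNA (gene Cdkn1a, an inhibitor of cyclin-dependent kinases), was given before mating, and livers were taken at 8 dpc and 16 dpc. The thyroxine-binding globulin promoter of the virus limits p21 expression to hepatocytes, so other liver cells could still divide, and no NP group received AAV8-p21.

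Adult hepatocytes are mostly quiescent, and the liver is known for their ability to re-enter the cell cycle when it has to grow. Cells approaching division accumulate cyclins that switch on CDK1, and mitotic kinases, kinesins and kinetochore proteins then condense, align and separate the chromosomes before the anaphase-promoting complex ends mitosis. The transcripts of these genes are made in the G2 and M phases of the cell cycle and are scarce in resting cells, and p21 acts upstream by restraining the kinases that lead into S phase and mitosis. In bulk liver, fewer cells of a type and less RNA per cell cannot be told apart.

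Many mitotic genes carry 2 short elements just before their start: the CCAAT box, bound by the factor NF-Y, and the cell cycle homology region (CHR), bound by complexes that repress or activate transcription with the cell cycle. RefSeq (GRCm38.p6) gave a promoter window for 32 of the 38 genes, 35 windows in all because 3 genes had 2 starts. The 250 bases before each start were searched on both strands for CCAAT and for the CHR, here TTTGAA or TTCGAA. The promoter stretches of 6 genes are printed 5′ to 3′ on the strand of the gene and end at the last base before the start. They are shown because they belong to genes named in the results below and carry CCAAT boxes with and without a CHR, in different numbers; windows with a CHR alone or with no match are not printed. Matches to either motif, in either orientation, are in capitals.
Mki67, chr7:135716380-135716579, minus strand: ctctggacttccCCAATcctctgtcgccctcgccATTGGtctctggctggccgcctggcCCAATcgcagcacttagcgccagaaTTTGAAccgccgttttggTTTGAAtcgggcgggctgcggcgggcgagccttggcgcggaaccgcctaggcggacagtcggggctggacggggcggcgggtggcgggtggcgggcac
Hmmr, chr11:40733438-40733617, minus strand: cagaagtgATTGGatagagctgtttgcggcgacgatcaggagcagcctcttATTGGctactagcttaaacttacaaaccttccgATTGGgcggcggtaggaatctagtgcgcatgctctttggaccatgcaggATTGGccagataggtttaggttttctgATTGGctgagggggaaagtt
Top2a, chr11:99024190-99024389, minus strand: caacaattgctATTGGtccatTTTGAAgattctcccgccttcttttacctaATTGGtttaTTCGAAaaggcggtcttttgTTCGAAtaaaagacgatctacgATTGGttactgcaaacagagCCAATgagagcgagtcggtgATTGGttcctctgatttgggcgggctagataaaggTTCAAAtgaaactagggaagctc
Ccnb2, chr9:70421555-70421724, minus strand: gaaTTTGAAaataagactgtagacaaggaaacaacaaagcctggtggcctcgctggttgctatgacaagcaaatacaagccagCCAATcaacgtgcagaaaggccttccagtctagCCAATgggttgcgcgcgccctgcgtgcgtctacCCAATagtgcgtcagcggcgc
Cenpf, chr1:189688087-189688226, minus strand: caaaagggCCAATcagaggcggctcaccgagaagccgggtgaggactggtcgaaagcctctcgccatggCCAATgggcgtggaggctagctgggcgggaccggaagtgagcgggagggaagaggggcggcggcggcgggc
Ect2, chr3:27153879-27154018, minus strand: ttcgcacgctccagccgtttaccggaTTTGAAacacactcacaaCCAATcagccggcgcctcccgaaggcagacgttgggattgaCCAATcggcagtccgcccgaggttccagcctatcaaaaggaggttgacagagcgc

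The Hmmr stretch held 5 CCAAT boxes, all on the opposite strand (read as ATTGG), and no CHR. The Top2a window held 6 CCAAT boxes and 4 CHR matches, the Mki67 window 3 and 2, and the Cenpf window 2 and 0. A CCAAT box was present in 26 of the 35 windows (74.3%), against 33.8% of the 32851 windows of all genes and 35.2% of the 12506 windows of the genes tested below. A pair of CCAAT boxes or more was present in 51.4% of the windows of mitotic genes, against 10.1% and 12.6%. The CHR was present in 37.1%, against 17.1% and 12.7%, and both motifs together in 31.4%, against 6.02% and 4.77%. Among 39 windows of genes of the G1/S transition and DNA replication, a CCAAT box was present in 61.5% and a CHR in 17.9%. No match was found in the windows of Anln, Birc5, Melk, Ndc80, Nuf2 and Nusap1. A match describes the letters in the window and not a bound site.

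**Figure D1:**
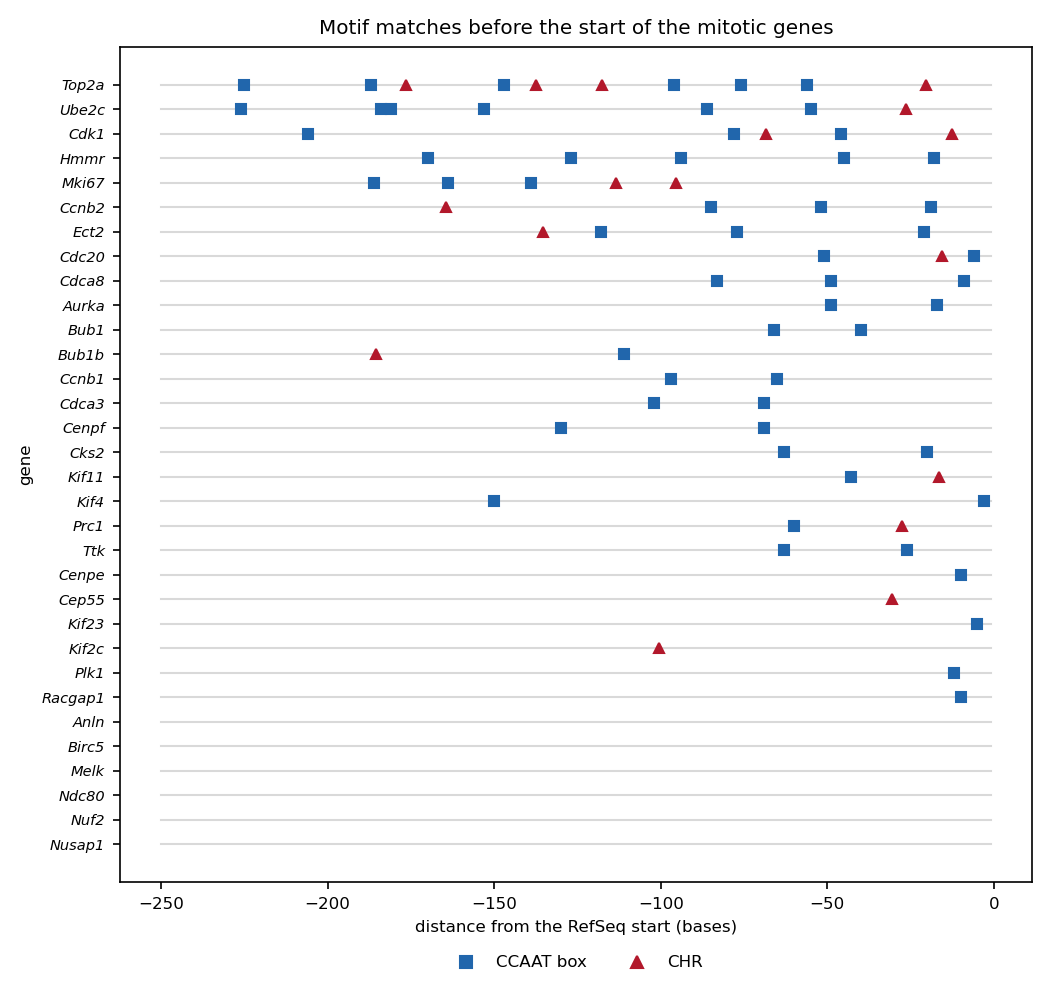
Matches to the CCAAT box (squares) and to the CHR (triangles) by distance in bases from the RefSeq start, 1 row per mitotic gene, for the window with most matches where a gene had more than 1 (for Ect2 not the window printed above). Matches crowd into the rows of Top2a, Ube2c, Cdk1, Hmmr and Mki67, and 6 genes at the foot have none.

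The 15 libraries held between 12280709 and 17615185 counted reads. Hepatocyte markers were abundant in every liver: the 10 markers summed to 85146 to 443795 CPM (a gene's reads relative to the total of its library, scaled by the trimmed mean of M values throughout). Albumin alone took 7.90% to 12.9% of the counts at NP and 8 dpc, and 20.5% to 27.8% at 16 dpc. Cdkn1a was at 3.28 to 127 CPM in the 9 AAV8-null livers, while AAV8-p21 gave 347 to 648 CPM (8 dpc) and 814 to 1663 CPM (16 dpc), so no library went against its label. The AAV8-null livers differed by stage, with 3.28 to 33.7 CPM at NP, 16.5 to 33.4 CPM at 8 dpc and 59.8 to 127 CPM at 16 dpc. Reads of the viral cDNA and of the native gene were not separated. At this depth a mitotic gene could rest on few reads: in AAV8-null liver 3 at 8 dpc Mki67 was read 79 times, Plk1 6 times and Melk 1 time.

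The mitotic genes were highest in livers 1 and 2 of the 8 dpc AAV8-null group and low in liver 3. Their summed level was 381, 400 and 47.2 CPM in the 3 livers of this group. It was 74.6, 19.6 and 25.0 CPM in the NP livers, and 66.8, 17.7 and 21.7 CPM in the 16 dpc AAV8-null livers. With AAV8-p21 the sum was 30.6, 48.3 and 69.9 CPM at 8 dpc, and 35.1, 32.6 and 17.6 CPM at 16 dpc. Each of the 38 genes was higher in livers 1 and 2 of the 8 dpc AAV8-null group than in any of the other 13 livers. Liver 3 of that group was the lowest of its group for all 38 genes, and the mean of the other two exceeded it by a median of 9.34-fold (1.93 to 32.6). For 33 of the 38 genes liver 3 lay within or below the range of the 8 dpc AAV8-p21 livers, and for 33 within or below the range of the NP livers. Since this liver stands apart, the counts and medians of the mitotic genes in each comparison that uses its group are given with and without it, the latter for the genes that passed the filter with all 15 livers. The liver was picked because it was lowest for these same genes, which leaves livers 1 and 2 in its group. More calls and smaller p-values without it follow in part from that choice. The share of all genes printed beside them was not picked in this way. These values describe the dependence on this liver and are no support for a change.

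**Figure D2:**
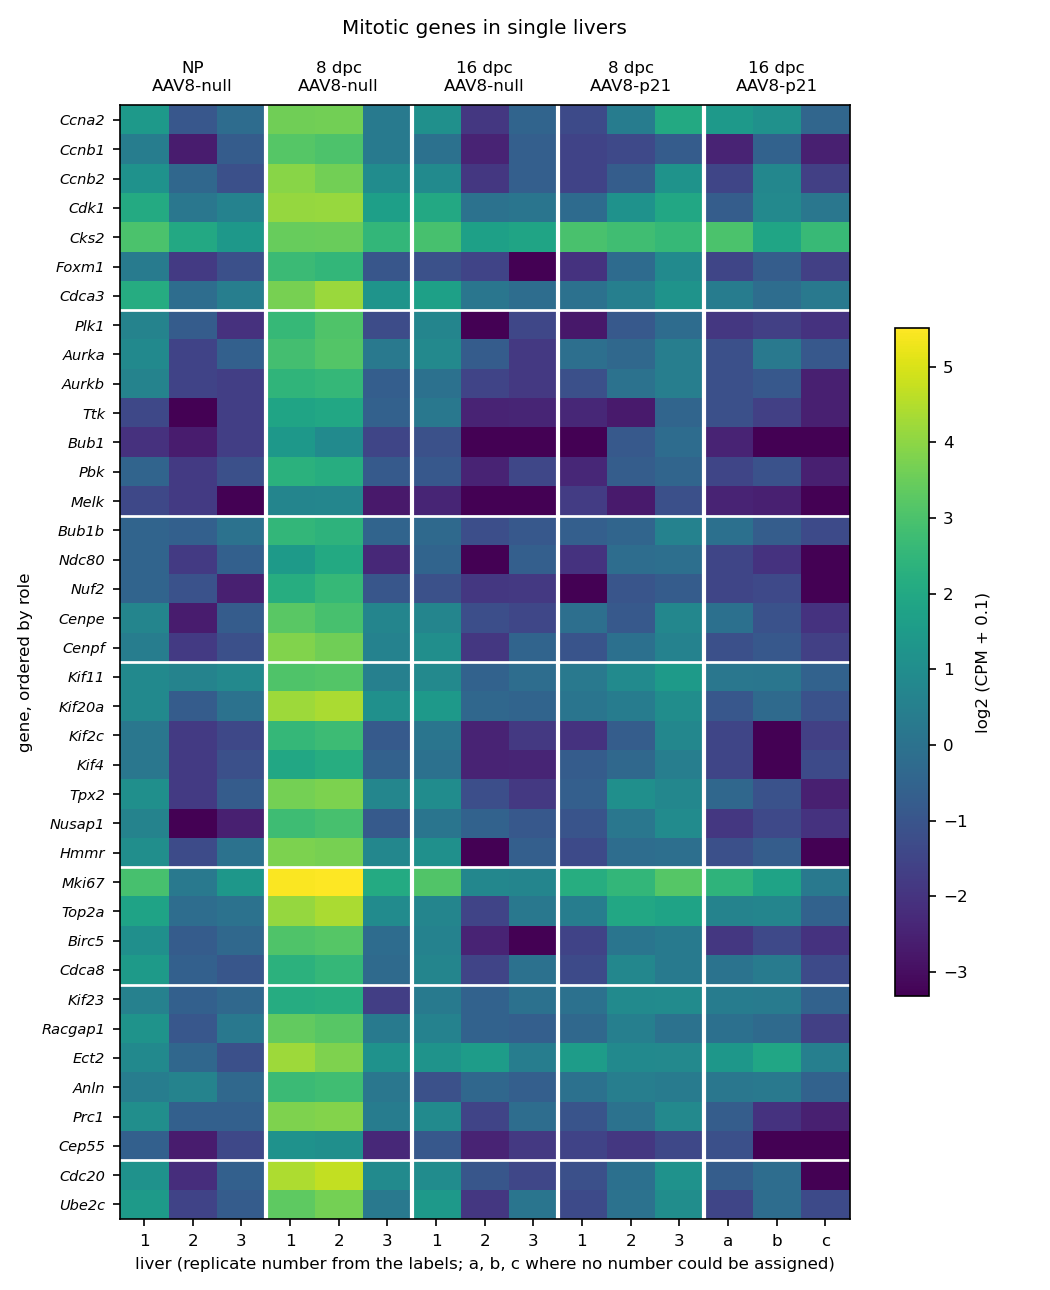
Level of each mitotic gene (rows, grouped by role, with white lines between roles) in each of the 15 livers (columns, by group), as log2 of CPM plus a pseudocount of 0.1. Livers 1 and 2 of the 8 dpc AAV8-null group form the bright pair of columns, and liver 3 of that group resembles the columns of the other groups.

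The other groups also held a liver in which most of the genes were highest. NP liver 1 was the highest of its group for 35 of the 38 genes, and 16 dpc AAV8-null liver 1 for 36. Among the 8 dpc AAV8-p21 livers, liver 3 was the highest for 31 genes and liver 1 the lowest for 31. The 16 dpc AAV8-p21 columns carry numbers that do not all match those in the labels, so these livers are called a, b and c here, and liver c was the lowest for 29 genes.

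The level per kilobase of exon placed Cks2, a small subunit of CDK complexes, first in the 8 dpc AAV8-null group, with a mean of 13.3 ± 4.41 CPM per kb (SD, n = 3). Cdc20, which activates the anaphase-promoting complex, followed at 8.79 ± 6.90 CPM per kb, and Ccnb2, a B-type cyclin, at 6.43 ± 4.62 CPM per kb. Bub1, a checkpoint kinase, was last at 0.348 ± 0.263 CPM per kb. Each step between neighbours in this order was smaller than the larger of their SDs. In the NP livers Cks2 stood at 6.92 ± 4.09 CPM per kb and every other gene was below 1 CPM per kb.

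Mki67 (chr7:135689784-135716361, GRCm38, minus strand) encodes Ki67, the protein coating mitotic chromosomes that is stained to mark cycling cells. It was at 43.7, 45.4 and 4.11 CPM in the 8 dpc AAV8-null livers and at 7.48, 1.10 and 2.45 CPM in the NP livers. At 16 dpc the AAV8-null livers had 8.47, 1.58 and 1.51 CPM. The AAV8-p21 livers had 4.44, 5.70 and 8.89 CPM at 8 dpc, and 5.28, 3.42 and 1.09 CPM at 16 dpc. Livers 1 and 2 at 8 dpc were far above the rest, while liver 3 fell inside the NP range and below all 8 dpc AAV8-p21 livers.

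Hmmr (chr11:40701395-40733422, minus strand) encodes a microtubule-binding protein of the spindle that also binds hyaluronan. Its level was 13.6, 12.9 and 1.61 CPM in the 8 dpc AAV8-null livers, and 1.94, 0.304 and 0.909 CPM in the NP livers. At 16 dpc the AAV8-null livers were at 2.05, 0 and 0.534 CPM. AAV8-p21 livers gave 0.296, 0.799 and 0.840 CPM (8 dpc) and 0.341, 0.509 and 0 CPM (16 dpc). All 3 livers of the 8 dpc AAV8-null group lay above all 3 of the 8 dpc AAV8-p21 group, but liver 3 was inside the NP range.

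Cdk1 (chr10:69335146-69352938, minus strand), the kinase that starts mitosis, was at 17.2, 17.7 and 3.07 CPM in the 8 dpc AAV8-null livers, against 4.15, 1.04 and 1.40 CPM at NP and 3.92, 0.916 and 0.979 CPM at 16 dpc. AAV8-p21 livers gave 0.740, 2.17 and 3.85 CPM (8 dpc) and 0.511, 1.67 and 1.02 CPM (16 dpc). Ccnb1 (chr13:100778650-100786570, minus strand), the cyclin that partners CDK1, was at 8.96, 8.15 and 1.144 CPM in the 8 dpc AAV8-null livers, against 1.25, 0.0609 and 0.489 CPM at NP and 0.891, 0.0833 and 0.534 CPM at 16 dpc. AAV8-p21 livers gave 0.247, 0.285 and 0.490 CPM (8 dpc) and 0.0852, 0.581 and 0.0728 CPM (16 dpc). The 8 dpc AAV8-null livers did not overlap either the 16 dpc AAV8-null or the 8 dpc AAV8-p21 livers for Ccnb1, whereas for Cdk1 liver 3 overlapped both.

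Top2a (chr11:98992943-99024189, minus strand), the topoisomerase that untangles sister chromatids, was at 17.0, 20.9 and 1.82 CPM in the 8 dpc AAV8-null livers, against 3.39, 0.792 and 0.909 CPM at NP and 1.51, 0.250 and 1.07 CPM at 16 dpc. AAV8-p21 livers gave 1.23, 3.82 and 3.36 CPM (8 dpc) and 1.45, 1.53 and 0.582 CPM (16 dpc). Plk1 (chr7:122159439-122169873, plus strand), a kinase needed for spindle assembly and cytokinesis, was at 5.93, 8.39 and 0.312 CPM in the 8 dpc AAV8-null livers, against 1.45, 0.487 and 0.140 CPM at NP and 1.51, 0 and 0.267 CPM at 16 dpc. AAV8-p21 livers gave 0.0493, 0.456 and 0.770 CPM (8 dpc) and 0.170, 0.218 and 0.146 CPM (16 dpc). Liver 3 of the 8 dpc AAV8-null group was above every 16 dpc AAV8-null liver for Top2a but not for Plk1.

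**Figure D3:**
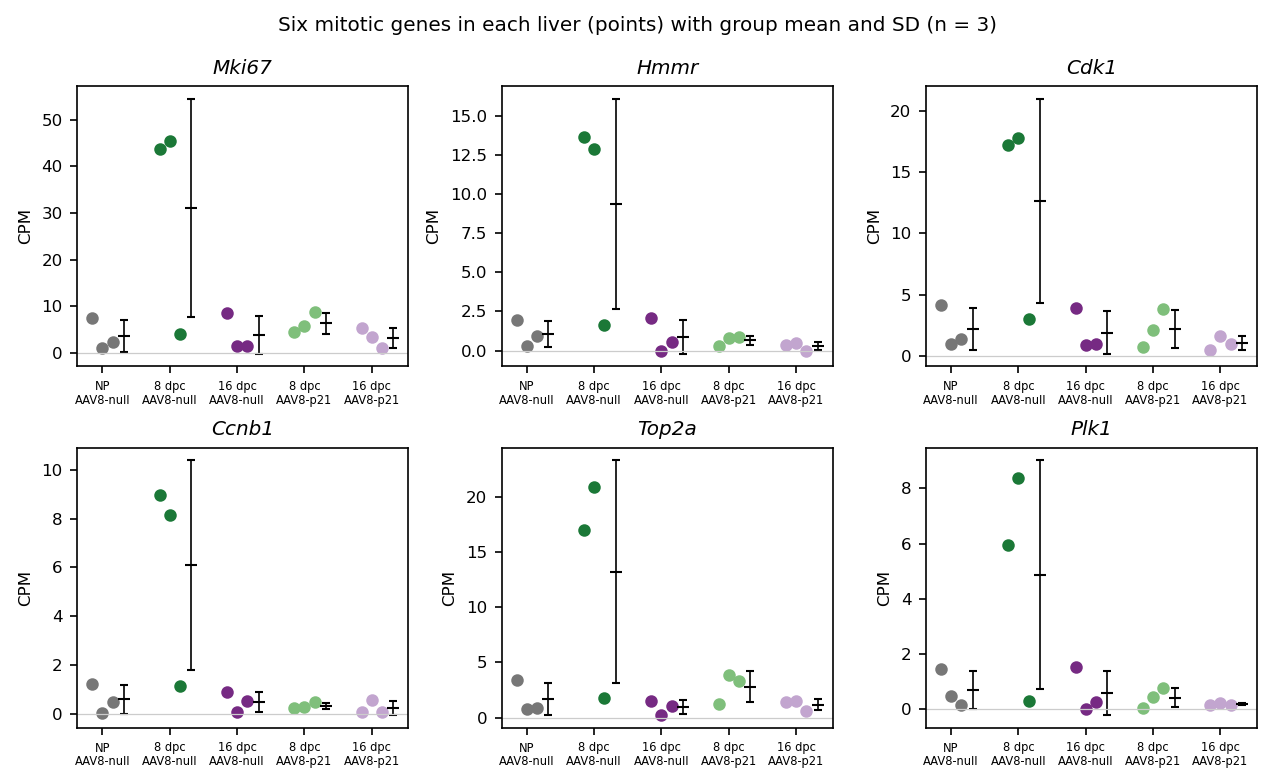
CPM (linear axis) of Mki67, Hmmr, Cdk1, Ccnb1, Top2a and Plk1 in each liver (points, 3 per group), with the group mean and SD (n = 3) to the right of the points. In each panel 2 of the 3 livers at 8 dpc with AAV8-null stand clear of the other points.

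The count models covered 12172 genes that passed a filter on low counts, 36 of the 38 mitotic genes among them. Melk, a kinase, and Cep55, which acts at the midbody, were too low: Melk was read 26, 26 and 1 times and Cep55 37, 34 and 2 times in the 8 dpc AAV8-null livers, and neither was read more than 8 times in any other. A gene was called changed where edgeR's quasi-likelihood test gave a Benjamini-Hochberg adjusted p under 0.05 over all tested genes with a log2 fold change beyond 1 in size. The p-values measure the spread between mice of these groups. An exact permutation test of 3 against 3 livers cannot go below p = 0.1 and is therefore not given.

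The first comparison asked whether pregnancy to 8 dpc changed the mitotic genes in AAV8-null livers. All 36 tested genes had a higher mean at 8 dpc than at NP, with a median log2 fold change of 2.91 (0.94 to 4.13), where the median of all tested genes was -0.01. None was called by edgeR, which called 0% of all tested genes in this comparison, and the smallest adjusted p of a mitotic gene was 0.264. At an unadjusted p under 0.05, 35 of the 36 were higher, against 3.23% of all tested genes. DESeq2 on all 15 libraries called 6 mitotic genes higher, against 0.332% of all genes, and limma voom with sample weights, which gives livers that stand apart less weight, called 35 (3.88% of all genes called higher). Without liver 3 of the 8 dpc AAV8-null group edgeR called 19 of the same 36 higher, against 0.55% of all genes, with a median log2 fold change of 3.44.

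There were 5 genes with all 3 livers at 8 dpc above all 3 at NP, against 4.68% of all tested genes: Ttk and Bub1, both checkpoint kinases, Cenpf, Kif20a and Ect2. Ect2, an activator of RhoA at the cleavage furrow, had 18.4, 14.0 and 2.18 CPM at 8 dpc against 1.73, 0.670 and 0.349 CPM at NP, a log2 fold change of 3.64 ± 0.71 (SE, edgeR adjusted p = 0.264). Kif20a, a kinesin of the central spindle, was at 18.3, 20.8 and 2.08 CPM against 1.73, 0.487 and 0.909 CPM, with a log2 fold change of 3.72 ± 0.75 (SE). Cenpf, a large kinetochore protein, was at 14.1, 11.96 and 1.40 CPM against 1.25, 0.183 and 0.349 CPM, with a log2 fold change of 3.95 ± 0.88 (SE). For these 3 genes even liver 3 stood above every NP liver, though by far less than the other two. Without liver 3 the edgeR adjusted p was 0.00841 for both Ect2 and Kif20a and 0.0246 for Cenpf.

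By role, the median log2 fold change from NP to 8 dpc was 2.73 for the cyclins, CDK1 and their partners, 2.94 for the mitotic kinases, 3.17 for checkpoint and kinetochore genes, 3.16 for spindle genes and kinesins, 2.74 for chromosome and passenger complex genes, and 2.50 for cytokinesis genes. The 2 genes of exit from mitosis were at 4.13 (Cdc20) and 2.78 (Ube2c, the ubiquitin-conjugating enzyme of the anaphase-promoting complex). These medians ran, without liver 3 of the 8 dpc group, from 3.002 for cytokinesis genes to 3.99 for the exit genes. Cks2 had the smallest value, 0.94 ± 0.43 (SE), with 10.8, 11.1 and 5.67 CPM at 8 dpc against 7.96, 3.90 and 2.52 CPM at NP. Cdca8, a passenger complex subunit, was the 1 gene with an unadjusted edgeR p above 0.05, at a log2 fold change of 1.65 ± 0.83 (SE).

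**Figure D4:**
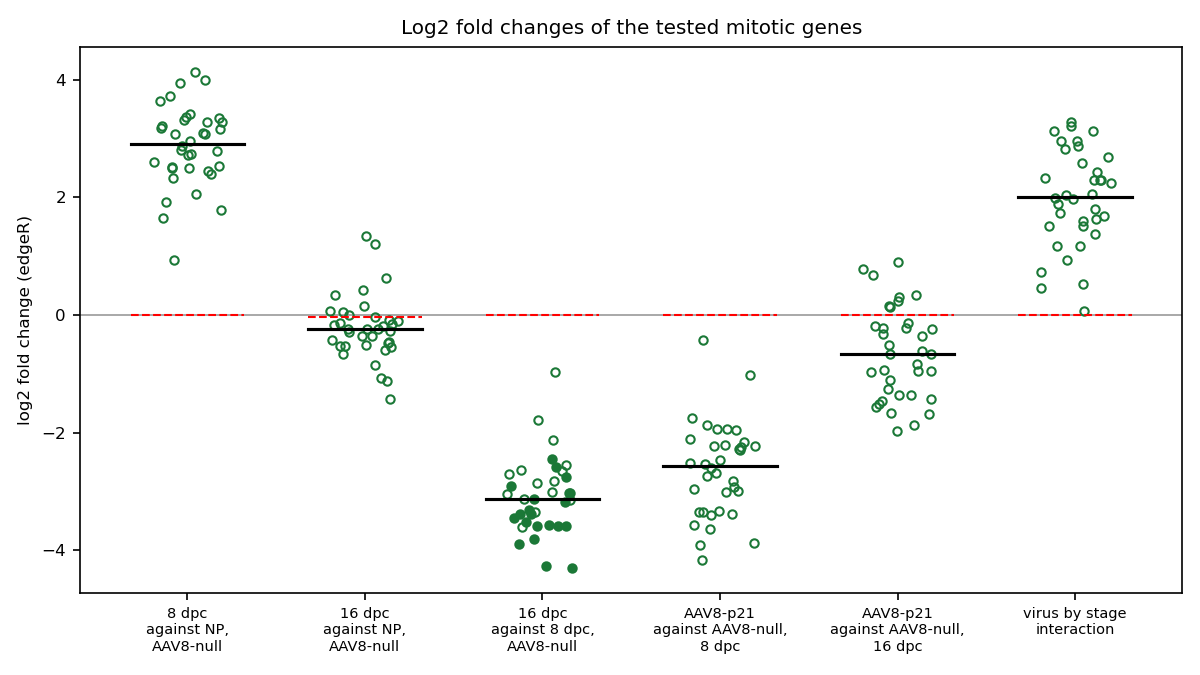
Log2 fold change by edgeR of the 36 tested mitotic genes (circles, spread sideways for legibility) in each comparison, filled where called. Black lines are the medians of the mitotic genes and dashed red lines those of all 12172 tested genes, which lie near 0 in every comparison. Filled circles occur in 1 comparison, 16 dpc against 8 dpc.

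Between 8 dpc and 16 dpc, 20 of the 36 tested mitotic genes fell in AAV8-null livers and 0 rose, against 2.88% of all tested genes called lower and 5.41% called in either direction. The median log2 fold change was -3.13 (-4.30 to -0.96), where that of all tested genes was 0.00. All 36 were lower at an unadjusted p under 0.05 (12% of all tested genes), and DESeq2 called 27 (3.65%). The count depended on single livers: it was 34 of the same 36 without liver 3 of the 8 dpc group, where 4.81% of all genes were called lower and the median of the mitotic genes was -3.62, and it was 1 without liver 1 or without liver 2 of that group, or without liver 2 or liver 3 of the 16 dpc group. The shares of all genes called lower in the last 4 of these fits were 0.969%, 0.871%, 1.15% and 1.29%. It was 0 when edgeR was fitted to the compared groups alone, where 30 mitotic genes passed the filter and the smallest adjusted p was 0.0635.

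Of the 7 genes of the cyclin and CDK1 group, Ccnb1, Ccnb2, Foxm1 and Cdca3 fell. Among the 6 tested mitotic kinases Pbk fell. Bub1b, Nuf2, Cenpe and Cenpf fell among the 5 checkpoint and kinetochore genes. Kif11, Kif20a, Tpx2 and Hmmr fell among the 7 spindle genes. Top2a and Birc5 fell among the 4 chromosome and passenger complex genes, Racgap1, Ect2, Anln and Prc1 among the 5 tested cytokinesis genes, and Cdc20 of the 2 exit genes. These counts by role depend on single livers. Without liver 3 of the 8 dpc group 6 of 7 cyclin and CDK1 genes, 6 of 6 kinases, 5 of 5 checkpoint and kinetochore genes, 7 of 7 spindle genes, 3 of 4 chromosome genes, 5 of 5 cytokinesis genes and 2 of 2 exit genes were called lower. Over all roles only 1 gene was called without liver 1 or liver 2 of that group, or without liver 2 or liver 3 at 16 dpc. Mki67 did not pass, at a log2 fold change of -3.01 ± 0.90 (SE, edgeR adjusted p = 0.0591), nor did Cdk1 at -2.71 ± 0.78 (adjusted p = 0.0517) or Plk1 at -3.03 ± 1.11 (adjusted p = 0.115). With no filter on low counts Mki67 and Cdk1 passed (edgeR adjusted p = 0.0453 and 0.0397) and Plk1 did not (0.107). Without liver 3 of the 8 dpc group Mki67 passed (adjusted p = 0.0127). Hmmr passed with all livers, at -3.44 ± 0.98 (adjusted p = 0.0489), as did Top2a at -3.81 ± 0.87 (adjusted p = 0.0189) and Ccnb1 at -3.59 ± 0.91 (adjusted p = 0.0306).

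Foxm1, the transcription factor that drives many G2/M genes, had 6.46, 5.59 and 0.416 CPM at 8 dpc against 0.356, 0.250 and 0 CPM at 16 dpc, the largest fall of the called genes at -4.30 ± 1.12 (SE, edgeR adjusted p = 0.0343). Its 16 dpc values rest on 4, 3 and 0 reads. Cdc20 was at 21.5, 26.0 and 1.77 CPM against 1.87, 0.416 and 0.267 CPM, a log2 fold change of -4.26 ± 1.09. For Foxm1 the groups did not overlap, while Cdc20 in liver 3 at 8 dpc was below liver 1 at 16 dpc.

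Nuf2, a subunit of the NDC80 complex that holds microtubules, was at 4.42, 5.95 and 0.416 CPM at 8 dpc against 0.356, 0.167 and 0.178 CPM at 16 dpc, a log2 fold change of -3.90 ± 1.04. Pbk, a mitotic protein kinase, was at 4.94, 4.40 and 0.468 CPM against 0.446, 0.0833 and 0.267 CPM, a change of -3.59 ± 0.88 on the log2 scale. Birc5 (survivin, a passenger complex subunit) was at 8.44, 9.05 and 0.780 CPM against 1.43, 0.0833 and 0 CPM, a change of -3.59 ± 1.02 on the log2 scale. The groups did not overlap for Nuf2 and Pbk and did for Birc5.

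There were 7 genes with all 3 livers at 16 dpc below all 3 at 8 dpc (Ccnb1, Ccnb2, Foxm1, Pbk, Nuf2, Top2a and Anln), a pattern seen in 12.9% of all tested genes. Anln, an actin-binding scaffold of the contractile ring, had the smallest adjusted p (0.00777, edgeR), at 6.46, 6.90 and 1.04 CPM against 0.356, 0.666 and 0.534 CPM. It was called in all 6 fits that left out 1 liver of these groups.

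No difference of these genes between 16 dpc and NP was detected with AAV8-null. At 16 dpc 9 of the 36 tested genes had a higher mean and 27 a lower one, with a median log2 fold change of -0.24 (-1.43 to 1.34). None was called and none had an unadjusted edgeR p under 0.05, while 4.91% of all tested genes were called in either direction and 2.06% lower, and 10.8% were lower at an unadjusted p under 0.05. DESeq2 also called 0 (2.55% of all genes were called lower). The median standard error of 1.02 for the mitotic genes, against 0.284 for all tested genes, limits what could be detected. Anln was lower in all 3 livers at 16 dpc than at NP (1.25, 1.46 and 0.699 CPM), a pattern seen in 12.5% of all tested genes, with a log2 fold change of -1.12 ± 0.64 (SE, edgeR adjusted p = 0.344). Ect2 was at 2.23, 2.83 and 1.25 CPM at 16 dpc, a log2 fold change from NP of 1.20 ± 0.73 (adjusted p = 0.374), and Foxm1 changed by -1.43 ± 1.27 (adjusted p = 0.564).

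AAV8-p21 was compared with AAV8-null at 8 dpc to ask whether p21 in hepatocytes kept the mitotic genes low. This comparison shares the 8 dpc AAV8-null livers with the comparisons above. All 36 tested genes had a lower mean in the AAV8-p21 livers, with a median log2 fold change of -2.57 (-4.16 to -0.42), where the median of all tested genes was 0.00. None was called by edgeR (smallest adjusted p = 0.249), which called 0.0246% of all tested genes, all of them lower. At an unadjusted p under 0.05, 32 of 36 were lower (2.69% of all tested genes), the exceptions being Cks2, Bub1, Ndc80 and Kif23. DESeq2 called 7 lower (0.155% of all genes) and limma voom 18 (0.575% of all genes). Without liver 3 of the AAV8-null group edgeR called 12 of the same 36 lower, against 0.255% of all genes, with a median log2 fold change of -3.09.

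Ccnb1, Cdca3, Cenpf, Kif20a and Hmmr were lower in all 3 AAV8-p21 livers than in all 3 AAV8-null livers, against 4.49% of all tested genes. Kif20a was at 0.987, 1.20 and 1.89 CPM with AAV8-p21, a log2 fold change of -3.35 ± 0.73 (SE, edgeR adjusted p = 0.249). Ccnb1 had the largest difference, -4.16 ± 0.92 on the log2 scale (adjusted p = 0.249), and its highest AAV8-p21 liver was at 0.490 CPM against 1.144 CPM in the lowest AAV8-null liver. Cenpf was at 0.395, 0.856 and 1.40 CPM with AAV8-p21, the last just under the 1.40 CPM of AAV8-null liver 3, and its log2 fold change was -3.39 ± 0.84 (adjusted p = 0.415). Without AAV8-null liver 3 the edgeR adjusted p was 0.00782 for Kif20a and 0.0249 for Ccnb1 and Cenpf, but 0.201 for Mki67 and 0.0521 for Hmmr. The median log2 fold change by role ran from -2.27 for the chromosome and passenger complex genes to -2.81 for the mitotic kinases, with -3.91 for Cdc20 and -2.96 for Ube2c. Without AAV8-null liver 3 the role medians ran from -2.79 for the chromosome and passenger complex genes to -3.97 for the exit genes. Cks2 had the smallest difference, at -0.42 ± 0.42, with 7.79, 6.79 and 5.95 CPM in the AAV8-p21 livers.

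At 16 dpc the AAV8-p21 and AAV8-null livers overlapped for 37 of the 38 genes. Of the 36 tested, 28 had a lower and 8 a higher mean with AAV8-p21, and the median log2 fold change was -0.66 (-1.97 to 0.90). None was called and none had an unadjusted edgeR p under 0.05. edgeR called 0.0739% of all tested genes in either direction and 0.0575% lower, with 4.72% lower at an unadjusted p under 0.05, and DESeq2 called 0 mitotic genes (0.394% of all genes lower). Nusap1, a spindle protein, was lower in all 3 AAV8-p21 livers, a pattern seen in 7.02% of all tested genes. Prc1, which bundles microtubules of the central spindle, had the smallest p, at 0.511, 0.145 and 0.0728 CPM with AAV8-p21 against 1.78, 0.250 and 0.801 CPM, a log2 fold change of -1.97 ± 1.17 (SE, edgeR adjusted p = 0.597). Kif20a was at -1.36 ± 0.89 on the log2 scale (adjusted p = 0.641) and Cenpf at -1.43 ± 1.07 (adjusted p = 0.692). The median standard error was 1.13, so that a difference of 1 on the log2 scale lay within the error.

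The difference between the effects of AAV8-p21 at 16 dpc and at 8 dpc was tested as an interaction. It was positive for all 36 tested genes, with a median of 2.01 on the log2 scale (0.06 to 3.28) and a median standard error of 1.42. None was called, as for all tested genes (0%), and DESeq2 called 0 (0%). At an unadjusted p under 0.05 there were 5, against 1.74% of all tested genes: Ccna2, Bub1b, Top2a, Ect2 and Anln. All 5 had a lower mean with AAV8-p21 at 8 dpc and a higher mean with AAV8-p21 at 16 dpc, where the log2 difference ran from 0.13 (Bub1b) to 0.90 (Ccna2). Anln had the value 2.88 ± 0.85 (SE), Ect2 2.69 ± 0.93 and Bub1b, a spindle checkpoint kinase, 2.29 ± 1.03, with edgeR adjusted p values above 0.99. Without liver 3 of the 8 dpc AAV8-null group edgeR again called 0 (0% of all genes), the median was 2.503, and Anln had the smallest adjusted p of the named genes (0.261). An effect of AAV8-p21 that differed between the stages was not detected with 3 livers a group.

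The mitotic genes varied more between livers of a group than most genes did. Their median biological coefficient of variation was 0.707 (0.363 to 0.922), against 0.239 for all 12172 tested genes and 0.276 for the 4983 tested genes within their range of abundance. The genes of the G1/S transition and DNA replication were at 0.356. Liver 3 of the 8 dpc AAV8-null group adds to these values: without it the median was 0.559 for the mitotic genes, 0.234 for all tested genes and 0.294 for the G1/S genes. Plk1 was the most variable, at the 99.6th percentile of the genes in that range, and Cks2 the least, at the 76.3rd. After group means were removed, the log2 CPM of 2 mitotic genes correlated across the 15 livers with a median Pearson r of 0.825 over 630 pairs, and 606 pairs were above 0.5. Pairs of G1/S genes had a median r of 0.413, and pairs of a mitotic and a G1/S gene 0.597. Over the other 14 livers these medians were 0.709, 0.242 and 0.386, and 509 of the 630 pairs of mitotic genes were above 0.5. These points share libraries and depth, and the r values are a description. Ect2 (median r with the other mitotic genes 0.633), Anln (0.580) and Cks2 (0.553) followed the rest least closely.

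**Figure D5:**
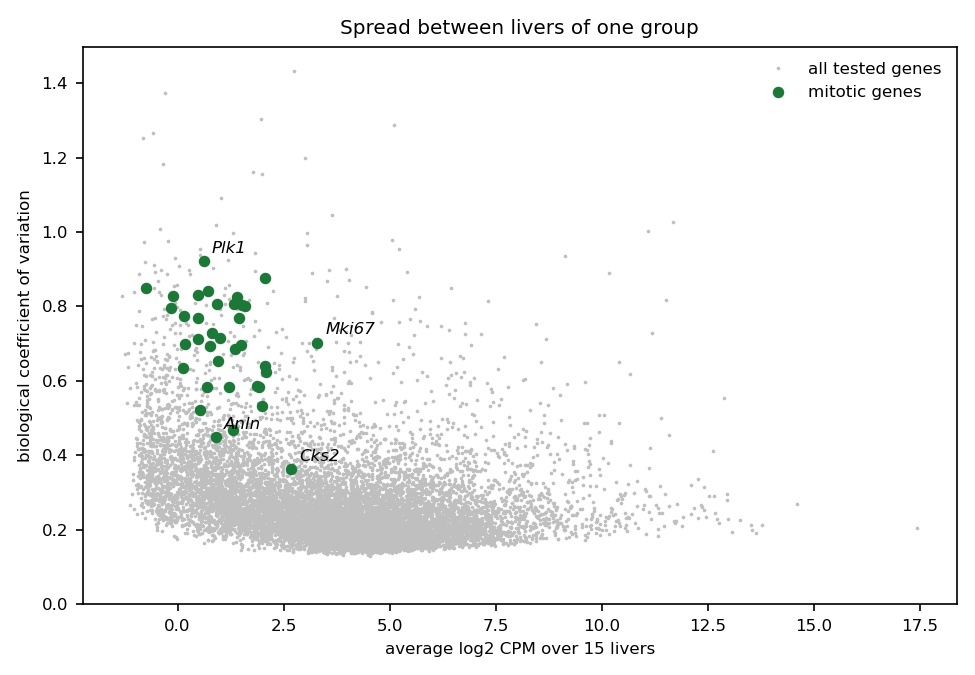
Biological coefficient of variation between livers of a group (vertical axis) by average log2 CPM (horizontal axis) for all 12172 tested genes (grey) and the 36 tested mitotic genes (green). Most green points lie in the upper part of the grey cloud, with some grey points above them, and Cks2 and Anln lie lower, within the cloud.

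Other cell types were followed through marker genes. The 8 markers of Kupffer cells and macrophages summed to 543, 468 and 264 CPM in the 8 dpc AAV8-null livers, lowest in liver 3 as for the mitotic genes, against 365 to 474 CPM at NP and 410 to 628 CPM at 8 dpc with AAV8-p21. None of these markers was at 0 and none was called in any comparison. The 12 markers of granulocytes and their precursors summed to 13.7, 22.9 and 15.03 CPM in the 8 dpc AAV8-null livers, 0.852 to 3.74 CPM at NP, 5.25 to 28.0 CPM at 16 dpc, 4.74 to 7.28 CPM at 8 dpc with AAV8-p21 and 2.84 to 7.34 CPM at 16 dpc with AAV8-p21. S100a8 and S100a9, abundant in neutrophils, were higher in all 3 livers at 8 dpc with AAV8-null (2.79, 2.02 and 4.89 CPM, and 4.36, 2.32 and 6.71 CPM) than in any NP liver (0.140 to 0.485 and 0.122 to 1.04 CPM). In the 8 dpc AAV8-null livers the precursor markers Mpo and Elane stood at or below 0.298 CPM, Ctsg was at 0, and Prtn3 made 17.3 CPM of the sum in liver 2. Of the 12, 4 were abundant enough to be tested; 0 were called at 8 dpc against NP or for AAV8-p21 at 8 dpc, 1 was called lower at 16 dpc against 8 dpc, and 2 were called higher at 16 dpc against NP, where the median log2 fold change of the 4 was 3.88. Their median was 3.39 at 8 dpc against NP and -1.42 for AAV8-p21 at 8 dpc, the same signs as for the mitotic genes. Within the 8 dpc AAV8-null group the order differed: S100a8 and S100a9 were highest in liver 3, where the mitotic genes were lowest, and Prtn3 was highest in liver 2. The 8 markers of endothelial cells summed to 145 to 197 CPM in the 8 dpc AAV8-null livers, below the 203 to 347 CPM at NP and the 249 to 329 CPM at 16 dpc with AAV8-null, and overlapped the 178 to 245 CPM at 8 dpc with AAV8-p21. The 8 markers of stellate cells summed to 100.2 to 161 CPM in the 8 dpc AAV8-null livers, below the 185 to 198 CPM at NP, the 192 to 259 CPM at 16 dpc with AAV8-null and the 178 to 243 CPM at 8 dpc with AAV8-p21. The sums of both lists were thus low in the group where the mitotic genes were highest, none of their markers was at 0 in a whole group, and none was called at 8 dpc against NP or for AAV8-p21 at 8 dpc. Dcn made 99.4, 61.0 and 81.0 CPM of the stellate sums in the 8 dpc AAV8-null livers. Dcn and Lrat were below every NP liver there, while each of the other stellate markers overlapped the NP livers. At 16 dpc against 8 dpc 1 marker of each list was called higher, and at 16 dpc against NP 1 stellate marker was called lower. The 7 markers of cholangiocytes summed to 27.7 to 36.8 CPM in the 8 dpc AAV8-null livers, within the range at NP or just below it (27.8 to 40.8 CPM), and to 45.4 to 64.4 CPM at 8 dpc with AAV8-p21, with 0 called in any comparison. Erythroid markers (14 counted of 15) summed to 117 to 174 CPM at 8 dpc with AAV8-null, 82.9 to 133 CPM at NP and 233 to 326 CPM at 16 dpc with AAV8-null, where 3 were called higher than at NP and 1 higher than at 8 dpc. The 12 markers of T and NK cells summed to 5.04 to 6.46 CPM at 8 dpc with AAV8-null and 4.63 to 7.20 CPM at NP, and the 8 of B and plasma cells to 236 to 295 CPM and 213 to 245 CPM. Sdc1, which hepatocytes also express, made 231 to 290 CPM and 207 to 242 CPM of these sums, and each of the other 7 markers was at or below 2.01 CPM in these livers, so that the sum describes Sdc1 rather than B and plasma cells. In the T and NK list and in the B and plasma list 1 marker was called higher at 16 dpc than at NP and 1 higher than at 8 dpc. The part of these cells in the results on mitotic genes was not tested. The 10 hepatocyte markers summed to 105119, 85146 and 104250 CPM in the 3 livers of the 8 dpc AAV8-null group. Alb made 83762, 65671 and 78118 CPM of these sums, so that the sum, which did not separate liver 3, mostly describes Alb. Single markers set liver 3 apart in either direction: Pck1 was at 1627, 1528 and 3376 CPM, and Serpina1a at 1795, 1851 and 923 CPM. Of the 10, 2 were called higher at 16 dpc against 8 dpc, and 2 higher and 3 lower at 16 dpc against NP.

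Some of the counts could include reads of other genes. Exons of 8 mitotic genes overlap a protein-coding gene on the opposite strand (GENCODE M21), with the largest shares in Kif20a (29.3% of its exon length, shared with Cdc23) and Ube2c (22.8%, shared with Tnnc2). The libraries were stranded, but whether the counting used the strand is not stated in the sources used here. A stretch of exon sequence with a match of at least 97% identity in another gene, overlapping genes included, was found for 12 of the 38 genes, whose values are less certain for it. Ccnb1 has 3 processed pseudogenes at 97.3% to 99.2% identity and Cks2 has 3 at 98.3% to 100%. A processed pseudogene matched 488 bp of Racgap1 (98.2% identity), 216 bp of Mki67 (98.6%) and 198 bp of Cenpe (98.5%). Foxm1 shares 144 bp of exon on the same strand with Tex52.

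A wider list of 82 other genes of G2 and mitosis was compared in the same way. At 16 dpc against 8 dpc with AAV8-null, 18 of its 63 tested genes were called lower and 1 higher, with a median log2 fold change of -1.74, where 2.88% of all tested genes were called lower and 2.53% higher. With all livers the largest falls were in Ckap2l at -4.66 ± 1.13 (SE, edgeR adjusted p = 0.0250), Ncapg at -4.04 ± 1.15, Ckap2 at -3.70 ± 0.98, Cdca2 at -3.48 ± 0.88 and Knl1 at -3.39 ± 0.76. These encode spindle-associated proteins (Ckap2l, Ckap2), a condensin subunit (Ncapg), a chromatin protein that recruits a phosphatase (Cdca2) and a kinetochore scaffold (Knl1). Ccnf, an F-box protein that targets other proteins for degradation, rose by 1.35 ± 0.35 with all livers. In the fit without liver 3 of the 8 dpc group 40 of the same 63 were called lower (4.81% of all genes) and 0 higher, with a median of -2.11. At 16 dpc against NP, Ccnf was called higher at 1.90 ± 0.36 and the kinetochore subunit Spc24 lower at -2.71 ± 0.48. With 2.85% of all tested genes called higher and 2.06% lower there, 1 of 63 in each direction was no more than the background. By edgeR 0 of the 63 were called in the other comparisons. At an unadjusted p under 0.05, 39 were higher at 8 dpc against NP (3.23% of all tested genes) and 34 lower with AAV8-p21 at 8 dpc (2.69%). Without liver 3 edgeR called 13 of the 63 higher at 8 dpc against NP (0.55% of all genes) and 7 lower with AAV8-p21 (0.255%).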

How the data were processed

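Livers of 15 mice were profiled, 3 in each of 5 groups taken from the labels. Stranded mRNA libraries gave single-end reads of 86 bp. The authors used cutadapt 1.14 for trimming, HISAT2 2.1.0 for alignment to mm10 and HTSeq 0.12.4 to count uniquely mapped reads per protein-coding gene, and deposited the raw counts. From these counts, edgeR 4.0.16 (TMM scaling, filterByExpr with a minimum count of 10, 1 model of all 15 libraries with 10 residual degrees of freedom, quasi-likelihood test, Benjamini-Hochberg adjustment) gave fold changes and p-values. The standard error is the log2 fold change divided by the root of the F statistic. DESeq2 1.42.0 and limma 3.58.1 (voom), other scaling, filter, threshold and fits with each library left out were alternatives; counts, medians and spread without liver 3 of the 8 dpc AAV8-null group, for the genes tested with all livers, were added after seeing the data. The procedure was tested on simulated counts. The genes and lists were chosen with earlier results of these data known. Values in every liver were given for 6 genes fixed by role and, per comparison, for up to 5 called genes of largest change or, with none called, 3 of smallest p; Ccna2, Cks2, Cdca8, Nusap1, Ube2c and genes listed by non-overlap were named after their values were seen. GENCODE M21 positions (GRCm38) and blastn 2.17.0 matches of at least 97% identity gave overlaps and copies. The value of 1 gene of the G1/S list is not reported here. Figures were drawn with matplotlib 3.10.9.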

Additional observations from a re-analysis of the deposited data

How the results depend on the processing

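The number of mitotic genes called depended on the test and on single livers more than on scaling. Scaling by DESeq2 size factors, omitting the filter and omitting the fold limit left each count within 1.5 times of its value (20 became 25 at 16 dpc against 8 dpc with no filter, Mki67 and Cdk1 among them). The size factors moved the log2 fold changes by a median, over all genes tested, of at most 0.0109 in any comparison. At 8 dpc against NP, 0 genes became 6 with DESeq2 on all 15 libraries, 13 with DESeq2 on the compared groups (0.42% of all genes) and 35 with limma voom, and 0 to 19 with each liver left out. For AAV8-p21 against AAV8-null at 8 dpc the counts were 7, 13 (0.426% of all genes) and 18, and 0 to 12 with each liver left out. At 16 dpc against 8 dpc, 20 became 0 with edgeR on the compared groups alone and 1 to 36 with each liver left out; the 36 (5.05% of all genes) include Melk and Cep55, which were too low to be tested with all livers. The other comparisons stayed at 0 throughout. The higher counts at 8 dpc, 19 (0.631% of all genes) and 12 (0.299%), came without the low AAV8-null liver. Among alternative values of the named genes, 794 kept their sign and side of the threshold, 28 passed it in the alternative alone, 56 no longer passed, and 40 that were called in neither changed sign.

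No pairing of the livers by replicate number was clear: correlations of the deviations of same-numbered livers ran from -0.529 to 0.451. Their means for livers of different numbers ran from -0.119 to 0.0800. For NP and 16 dpc with AAV8-null the same-numbered values were 0.451, 0.298 and -0.042, against a mean of -0.119 for different numbers. With 3 livers a group these values cannot exclude a pairing. With the replicate block, fitted to the 12 libraries whose numbers match the labels, 5 genes were called lower at 16 dpc against 8 dpc (2.4% of all genes), against 11 in these libraries without a covariate (2.67%); the other comparisons these libraries allow stayed at 0. No paired analysis was possible for the 16 dpc AAV8-p21 group because the numbers of its columns do not all match those of the labels, so no column was tied to a label. Depth limits the lowest genes, with up to 22 of the 38 at 3 reads or fewer in a liver.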

Other observations

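The genes of the G1/S transition and DNA replication, which act before the mitotic genes in the cell cycle, also had their highest summed level in livers 1 and 2 of the 8 dpc AAV8-null group. The sum was 299, 311 and 157 CPM in the 8 dpc AAV8-null livers, 223, 173 and 184 CPM at NP, and 179, 155 and 142 CPM at 16 dpc. With AAV8-p21 the sum was 179, 195 and 239 CPM at 8 dpc and 197, 174 and 122 CPM at 16 dpc. The AAV8-null livers 1 and 2 at 8 dpc were thus above the other 13, and liver 3 was below every NP liver. At 16 dpc against 8 dpc with AAV8-null, 7 of the 38 tested genes were called lower by edgeR and 0 higher, with a median log2 fold change of -1.002, where 2.88% of all tested genes were called lower. Among these 7 were Mcm5 at -2.43 ± 0.66 (SE) and Mcm6 at -2.08 ± 0.51, subunits of the replicative helicase, Chaf1a, a histone chaperone, at -2.19 ± 0.56, Lig1, the ligase that joins Okazaki fragments, at -1.65 ± 0.46, Prim1, a primase subunit, at -1.59 ± 0.40, and Slbp, which binds histone mRNA, at -1.02 ± 0.25. Without liver 3 of the 8 dpc group 17 of the same 38 were called lower (4.81% of all genes), with a median of -1.30. At 16 dpc against NP, Ung, a uracil-DNA glycosylase, was called higher at 1.35 ± 0.38 and Slbp lower at -1.09 ± 0.25. With 2.85% of all tested genes called higher and 2.06% lower there, 1 of 38 in each direction was about the background. In the other comparisons edgeR called 0, with 8 higher at an unadjusted p under 0.05 at 8 dpc against NP (3.23% of all tested genes) and 5 lower with AAV8-p21 at 8 dpc (2.69%). Without liver 3, 1 of the 38 was called higher at 8 dpc against NP (0.55% of all genes) and 0 lower with AAV8-p21 (0.255%).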
